A study of Mus musculus with 6 samples.

Results

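Chondrocytes, the cells of cartilage, live in a tissue with few blood vessels and draw most of their energy from glycolysis, the breakdown of glucose to lactate. The transcription factors HIF-1alpha and HIF-2alpha raise the transcription of glucose transporters, glycolytic enzymes and many other genes when oxygen is low. In oxygen, the prolyl hydroxylases encoded by Egln1, Egln2 and Egln3 mark the HIF alpha subunits for destruction through the von Hippel-Lindau protein (Vhl). The genes described here are 38 genes named by a list of glycolysis genes and hypoxia targets, namely 17 glycolytic enzymes and their regulators, 4 glucose and lactate transporters and 17 other hypoxia targets. Of these, 37 were matched to a RefSeq probe set among the 19932 genes with a symbol. Pgam1 was not analysed here.

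All samples came from untreated wild-type ICR mice, an outbred stock. Chondrocytes of the nasal septum were taken at embryonic day 17.5 (n = 3) and chondrocytes of the rib at postnatal day 1 (n = 3). Samples within a group are biological replicates by their labels, and how many animals went into each is not given in the sources used here. Site and age changed together between the groups, so a difference due to either cannot be told apart from a difference due to the other. The values are intensities of whole-transcript arrays on a linear scale. Means are geometric means of 3 samples, and log2 differences are nasal minus rib. A difference was called where the limma p-value, adjusted over all 19932 genes, was under 0.05.

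All 11 chondrocyte markers gave high signals in both groups. Their lowest value in any sample was 2081, against a median gene intensity of 231, and 1 of them, Sox9, passed as higher in rib. The median log2 difference over all genes was 0.11 towards nasal. It lay in dim genes: those below the median intensity in nasal and rib alike had a median difference of 0.22, and the rest a median of -0.06. Markers of other cell types moved with the groups as well. Over all genes, 13.8% were called as higher in nasal and 14.7% in rib. Over 8 endothelial markers the summed intensity was 1104 to 1599 in nasal and 830 to 985 in rib, with 2 called as higher in nasal. All 8 were dim genes, below the median intensity in both groups. The highest sum was that of nasal replicate 1, with nasal replicates 2 and 3 at 1104 and 1163. Over 9 markers of glia and neurons the summed intensity was 2532 to 2997 against 2028 to 2202, with 4 called as higher in nasal. The largest part of that sum was S100b, at 1068 to 1237 in nasal and 897 to 1027 in rib, which was not called. Of the 9 markers, 7 were below the median intensity in both groups. Over 6 adipocyte markers the summed intensity was 2921 to 3351 against 1907 to 2029, with 2 called as higher in nasal and 1 in rib. The adipocyte gap lay mainly in Fabp4, at 1226 to 1785 in nasal and 326 to 368 in rib, while Adipoq, Plin1 and Cidec overlapped. Epithelial markers numbered 10, of which 3 passed towards nasal and 1 towards rib, and 2 of 12 skeletal muscle markers passed towards rib. Perichondrial and fibroblast markers summed to 10730 to 12473 in nasal and 13674 to 14565 in rib, with 1 of 8 called towards nasal and 3 towards rib. Most of that sum was Dcn, at 6126 to 7770 in nasal and 8909 to 10102 in rib. Among osteoblast markers 2 of 8 passed towards nasal, and 1 of 9 macrophage and osteoclast and 1 of 6 erythroid markers passed towards rib. No marker was listed at 0, and detection calls were not used here. Their part in the differences below was not tested, and in such bulk samples fewer cells of a type and less RNA per cell cannot be told apart.

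The core sequence that HIF binds is a run of ACGTG or GCGTG. Promoter windows of 250 bases before the RefSeq start site (GRCm38.p6) were found for 34 of the 37 measured genes, in 51 windows because some genes have several starts. The core, searched on both strands so that CACGT and CACGC also count, was present in 39 of these windows (76.5%), against 38.6% of all 32851 mouse windows. The windows of the measured genes also had more G and C, with a median of 60% against 52.4%. Each form of the core holds a CG, and the median count of CG was 14 in these windows against 6 in all windows. A core was found for 14 of 16 genes higher in nasal, for 3 of 4 higher in rib and for 12 of 14 not past the threshold. Such a match is a description of the letters and not a bound site. The windows of 6 called genes are shown because they carry the core and had the largest differences of their direction among the enzymes or the other targets. Each reads 5′ to 3′ towards the start site, with the core letters in capitals, and a CACGTG holds a core on each strand.
Pgk1 (chrX:106186850-106187099, plus strand): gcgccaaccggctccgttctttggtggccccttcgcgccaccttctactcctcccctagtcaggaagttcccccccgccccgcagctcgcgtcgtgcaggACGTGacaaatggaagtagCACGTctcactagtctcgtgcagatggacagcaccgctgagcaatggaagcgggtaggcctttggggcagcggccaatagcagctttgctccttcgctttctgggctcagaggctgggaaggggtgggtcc
Ldhb (chr6:142507958-142508207, minus strand): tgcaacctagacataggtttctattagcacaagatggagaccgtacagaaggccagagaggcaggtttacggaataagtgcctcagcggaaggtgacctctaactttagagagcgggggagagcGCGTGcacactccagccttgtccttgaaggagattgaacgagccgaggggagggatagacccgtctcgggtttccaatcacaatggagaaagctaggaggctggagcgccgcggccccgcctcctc
Pfkfb3 (chr2:11502091-11502340, minus strand): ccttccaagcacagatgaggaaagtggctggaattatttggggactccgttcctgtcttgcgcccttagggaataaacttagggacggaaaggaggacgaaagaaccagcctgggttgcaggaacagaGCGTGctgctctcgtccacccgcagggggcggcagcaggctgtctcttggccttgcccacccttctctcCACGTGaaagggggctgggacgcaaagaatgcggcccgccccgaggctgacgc
Bnip3 (chr7:138909507-138909756, minus strand): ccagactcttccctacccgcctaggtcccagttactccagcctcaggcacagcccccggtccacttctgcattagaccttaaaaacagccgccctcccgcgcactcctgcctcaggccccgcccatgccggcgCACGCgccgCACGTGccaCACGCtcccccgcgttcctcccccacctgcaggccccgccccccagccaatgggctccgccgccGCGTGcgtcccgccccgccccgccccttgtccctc
Egln3 (chr12:54203875-54204124, minus strand): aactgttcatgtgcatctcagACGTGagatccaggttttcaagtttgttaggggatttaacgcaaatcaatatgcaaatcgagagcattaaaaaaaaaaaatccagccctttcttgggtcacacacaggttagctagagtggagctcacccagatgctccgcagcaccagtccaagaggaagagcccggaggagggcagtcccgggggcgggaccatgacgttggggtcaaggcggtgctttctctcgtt
Adm (chr7:110627407-110627656, plus strand): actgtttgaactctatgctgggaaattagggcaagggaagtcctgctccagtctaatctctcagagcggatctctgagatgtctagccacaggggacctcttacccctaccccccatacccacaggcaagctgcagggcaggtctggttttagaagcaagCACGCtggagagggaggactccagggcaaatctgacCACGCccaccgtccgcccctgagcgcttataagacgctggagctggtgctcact
The Pgk1 window held ACGTG 150 bases before the start and the reverse of it 131 bases before. In the Bnip3 window 5 matches lay between 117 and 35 bases before the start, where CACGTG accounts for 2. The Pfkfb3 window, from the start with the most matches, also held CACGTG. The windows of Car12, Eno2, Gpi1, Tpi1 and Vhl held no core.

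More of these genes were higher in nasal than in rib. Of the 37 measured, 17 (45.9%) passed as higher in nasal, where 13.8% of all genes did, and 4 (10.8%) as higher in rib, where 14.7% did. In either direction 21 passed (56.8% against 28.5%). Brighter genes pass more often, so the 10589 genes that reached the median intensity in at least 1 group are the closer background. There, 44.3% of genes passed, 18.0% towards nasal and 26.3% towards rib, against 20 (58.8%), 16 (47.1%) and 4 (11.8%) of 34 genes of the list. The 3 nasal and 3 rib values did not overlap for 26 of the 37, 20 with nasal above and 6 with rib above. Over all genes 45.7% did not overlap, 24.0% with nasal above and 21.7% with rib above. Called genes that differed 2-fold or more were Ldhb, Bnip3, Car12 and Egln3, 4 in number (10.8%) and each higher in nasal, where 2.13% of all genes were called and at least 2-fold higher. No gene of the list was called and 2-fold or more higher in rib, where 1.62% of all genes were.

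**Figure D1:**
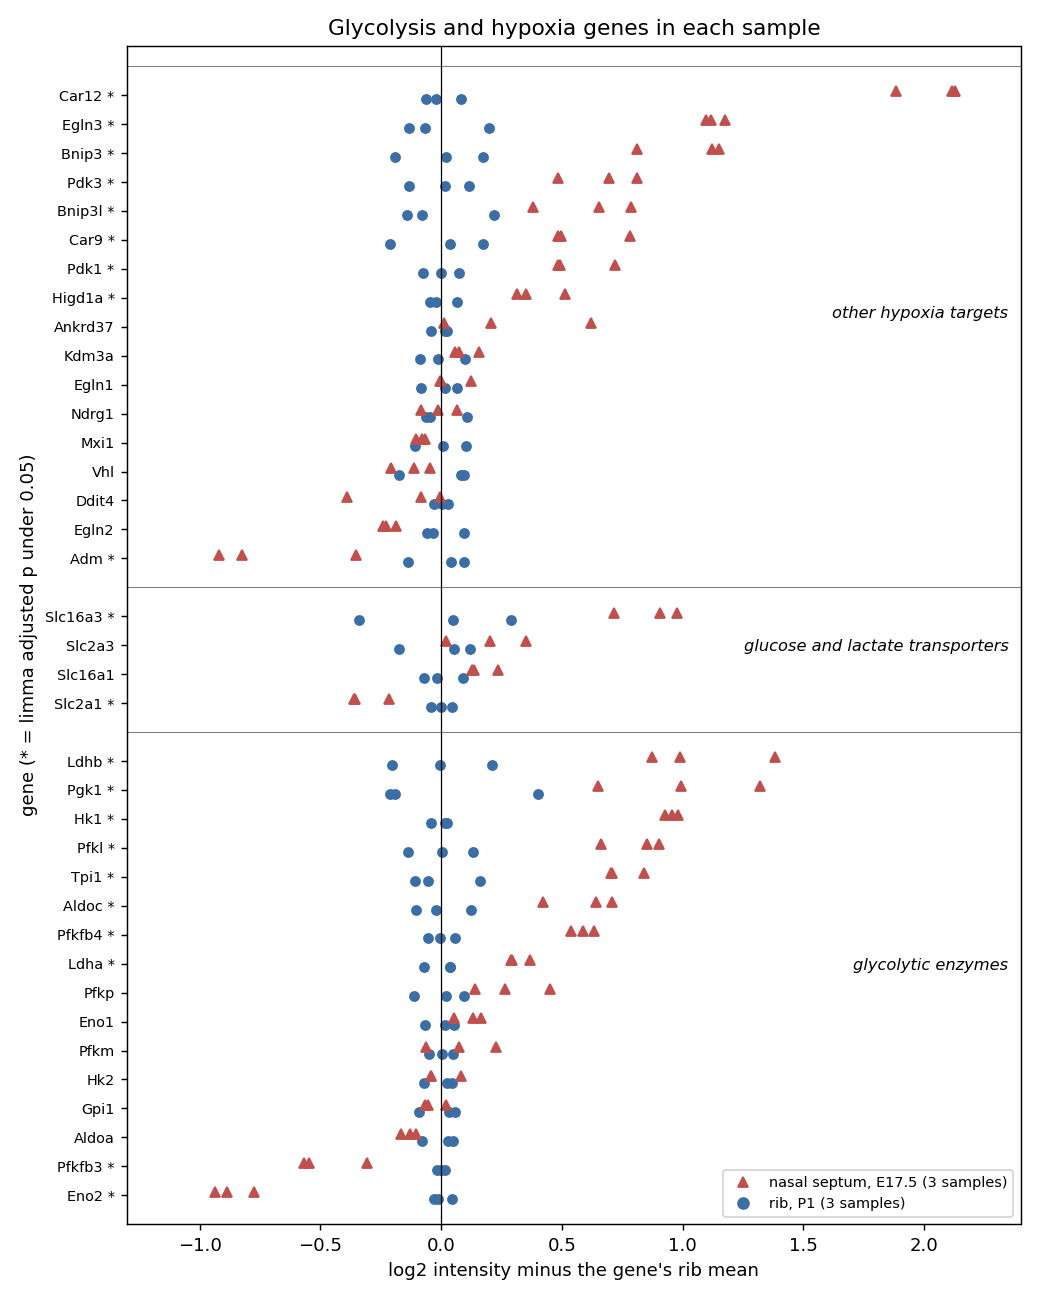
Log2 intensity of each measured gene in each sample, relative to the gene's mean in rib, with nasal septum samples as triangles and rib samples as circles (3 each). Genes are sorted by their difference within the 3 groups, and an asterisk marks a limma adjusted p under 0.05. Car12, with a log2 difference of 2.04, stands farthest to the right, and Eno2, at -0.87, has the lowest mean difference.

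Among the glycolytic enzymes, 8 of the 16 measured were higher in nasal and 2 in rib. These are shares of 50% and 12.5%. No enzyme lay below the median intensity in both groups, so the brighter genes are the closer background. There, 18.0% passed towards nasal and 26.3% towards rib. The enzymes' median log2 difference was 0.30, against 0.11 over all genes and -0.06 over the brighter genes. The pattern differed among related enzymes of a step, and is given below in the order of the pathway. Several of these genes have near-identical processed copies in the mouse genome. Which probes read such copies is not given in the sources used here, so the values of Pgk1, Ldha, Tpi1, Eno1 and Aldoa are uncertain to that extent.

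Hexokinases trap glucose in the cell as glucose 6-phosphate. Hk1, the widely expressed form, had intensities of 1812, 1846 and 1878 in the nasal samples and 926, 963 and 968 in the rib samples. Both groups were tight and far apart. The log2 difference was 0.95 (SE 0.08, limma adjusted p = 0.00044), a 1.94-fold excess in nasal, and another probe set of Hk1 gave 1.03. Hk2, the form that responds to insulin and hypoxia, had 902, 904 and 984 in nasal and 959, 946 and 884 in rib. These values overlapped, with a log2 difference of 0.00 (95% interval -0.21 to 0.21). Gpi1, the isomerase of the next step, also overlapped (-0.03, 95% interval -0.24 to 0.18).

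Phosphofructokinase commits glucose to glycolysis, and its subunits are encoded by Pfkl (liver type), Pfkm (muscle type) and Pfkp (platelet type). Pfkl stood at 809, 923 and 955 in nasal and at 561, 512 and 465 in rib. Every nasal sample lay above every rib sample, by 0.81 on the log2 scale (SE 0.11, limma adjusted p = 0.00255). Pfkm overlapped between the groups (0.08, 95% interval -0.17 to 0.32). Pfkp had 689, 855 and 753 against 578, 668 and 634, groups that did not overlap but did not pass (0.29, SE 0.11, limma adjusted p = 0.107). Pfkp did pass after quantile normalization (adjusted p range over all alternatives 0.0143 to 0.318).

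Pfkfb3 and Pfkfb4 encode bifunctional enzymes that make and remove fructose 2,6-bisphosphate, an activator of phosphofructokinase, and they went opposite ways. Pfkfb4 had 315, 295 and 305 in nasal and 203, 195 and 211 in rib. It was thus higher in nasal in every sample (0.59, SE 0.09, limma adjusted p = 0.00291). Pfkfb3 had 815, 691 and 680 in nasal and 1019, 998 and 1010 in rib, the reverse order. Its log2 difference was -0.47 (SE 0.10, limma adjusted p = 0.0133), and the 7 further probe sets of Pfkfb3 gave -0.44 to -0.49. The Pfkfb3 call was lost without nasal replicate 2 and without rib replicate 1 or 2, with the adjusted p reaching 0.0549.

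Aldolase splits the 6-carbon sugar. Aldoa, the muscle-type enzyme, ranged from 5786 to 6045 in nasal and from 6152 to 6724 in rib, a difference of -0.13 (SE 0.09) that did not pass (limma adjusted p = 0.279). It passed as higher in rib after cyclic loess (adjusted p = 0.0379). Aldoc, the form best known from brain, had 820, 783 and 672 against 546, 495 and 467. Its nasal values were all above the rib values (0.59, SE 0.11, limma adjusted p = 0.00894). In the same comparison, 4 of 9 glial and neuronal markers were called as higher in nasal.

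The next enzymes pass the split sugar down to phosphoglycerate, and they differed in spread. Tpi1, triose phosphate isomerase, had 3655, 3652 and 4015 in nasal and 2505, 2158 and 2078 in rib. The gap between the groups exceeded the spread within them (0.75, SE 0.11, limma adjusted p = 0.00263). Pgk1, phosphoglycerate kinase, had 629, 502 and 395 in nasal and 218, 221 and 333 in rib. The lowest nasal and the highest rib sample lay close together. The log2 difference of 0.99 had the widest error of the enzymes (SE 0.22, limma adjusted p = 0.0167). The Pgk1 call was lost without nasal replicate 2 and without rib replicate 1 or 2, with the adjusted p reaching 0.0670 over all alternatives.

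The enolases, which make phosphoenolpyruvate, differed from each other. Eno2, known as neuron-specific enolase, had 957, 968 and 1008 in rib and 572, 511 and 529 in nasal. All rib values were well above all nasal values, although 4 of 9 markers of glia and neurons were called as higher in nasal. The log2 difference was -0.87 (SE 0.09, limma adjusted p = 0.000781), 1.82-fold in favour of rib. Eno1, the widely expressed enolase, ranged from 2749 to 2970 in nasal and from 2527 to 2749 in rib, which did not pass (0.12, SE 0.09, limma adjusted p = 0.342).

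Lactate dehydrogenase turns pyruvate into lactate and back. Ldha, the subunit that HIF induces, had 7193, 7214 and 7605 in nasal and 6035, 6045 and 5599 in rib. The groups did not overlap, and the log2 difference was 0.32 (SE 0.09, limma adjusted p = 0.0323). The call depended on the probe set. The other Ldha probe set had 5315, 5756 and 7858 against 5914, 5868 and 5614, which overlapped and differed by 0.10. Ldha also lost its call after median centring, after cyclic loess and in 5 of the 6 fits without 1 sample (without nasal replicate 2 or 3, or any rib replicate), with the adjusted p reaching 0.201. Ldhb, the subunit common in oxidative tissues, had 307, 234 and 216 in nasal and 102, 117 and 136 in rib. Ldhb passed as 2.12-fold higher in nasal (1.08, SE 0.17, limma adjusted p = 0.00375), with its rib values under the median gene intensity.

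**Figure D2:**
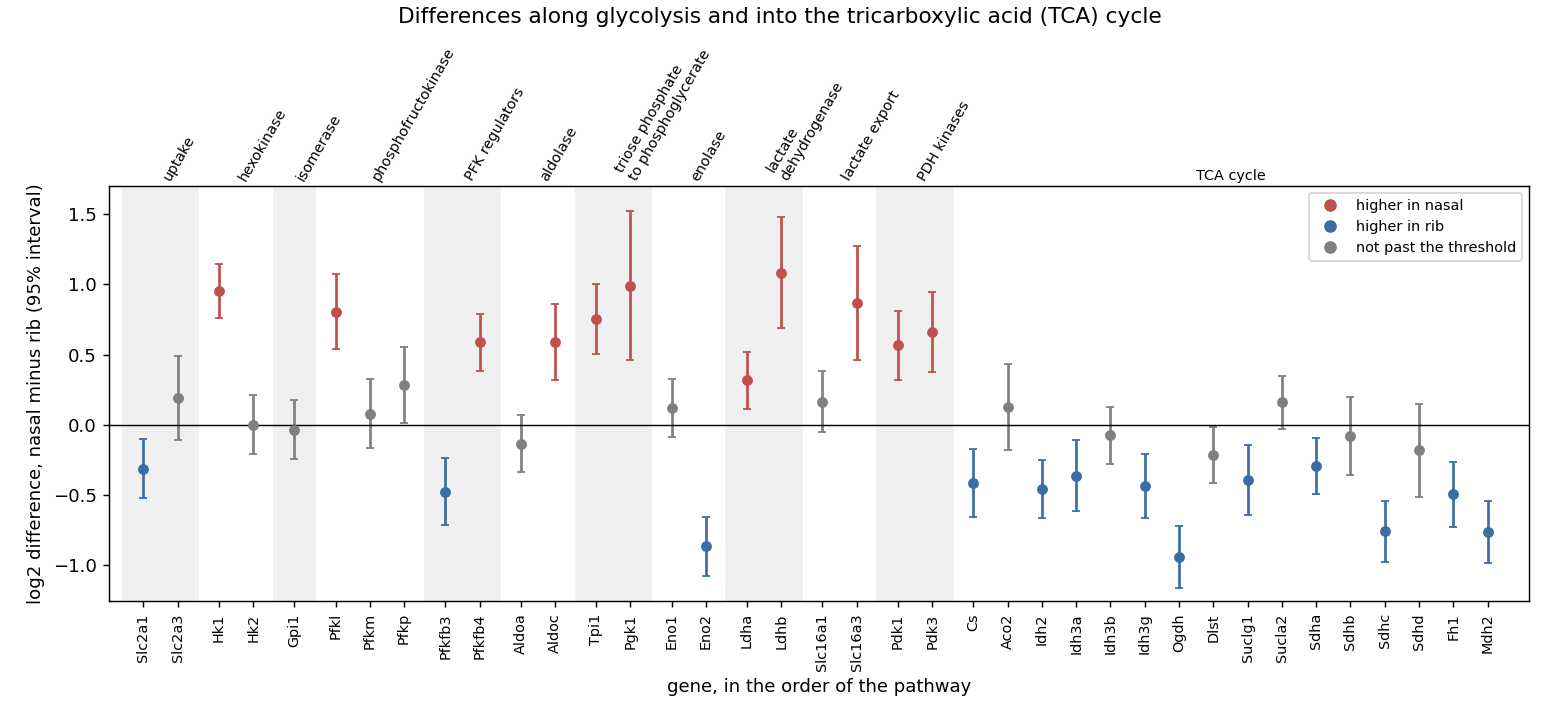
Log2 difference, nasal minus rib, with its 95% interval from limma for genes along glycolysis, lactate export, the pyruvate dehydrogenase (PDH) kinases and the tricarboxylic acid (TCA) cycle. Red marks genes higher in nasal, blue genes higher in rib and grey genes not past the threshold. Within several steps 1 gene lies clear of 0 while a relative lies at it, as with Hk1 at 0.95 and Hk2 at 0.00.

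Glucose and lactate transporters divided evenly, with 1 of 4 higher in each group. Slc16a3, which encodes the lactate exporter MCT4, had 1691, 1610 and 1410 in nasal and 1050, 889 and 677 in rib. Its groups were apart (0.87, SE 0.17, limma adjusted p = 0.00963), and its 2 other probe sets gave 0.80 and 0.78. Slc16a1, which encodes the lactate carrier MCT1, had 2927, 3132 and 2907 in nasal against 2534, 2833 and 2627 in rib and did not pass (0.17, SE 0.09, limma adjusted p = 0.211). Slc2a1, which encodes the glucose transporter GLUT1, had 10737, 9750 and 9704 in nasal and 12457, 12861 and 12116 in rib. Every rib sample was higher, by 0.31 on the log2 scale (difference -0.31, SE 0.09, limma adjusted p = 0.0381). The Slc2a1 call was lost in the 5 fits without nasal replicate 2 or 3 or any rib replicate, with the adjusted p reaching 0.139 over all alternatives. The highest intensities on the arrays were 17887 to 20271, and whether signals near the top were compressed was not tested. Slc2a3, the transporter GLUT3, was dim and overlapped (0.19, 95% interval -0.11 to 0.49).

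Among the other hypoxia targets, 8 of 17 (47.1%) were higher in nasal and 1 (5.88%) in rib. Of all brighter genes 18.0% and 26.3% were, but 2 of the 17 were below the median intensity in both groups. The median log2 difference of the 17 was 0.28, against 0.11 over all genes and -0.06 over the brighter genes. Without rib replicate 2 the nasal count was 5. Without nasal replicate 1, the array with the highest median intensity, the median was 0.12 against 0.025 over all genes in that fit. The largest difference was that of Car12, a membrane carbonic anhydrase that handles extracellular acid. Car12 had 3006, 3535 and 3562 in nasal and 863, 804 and 782 in rib. The lowest nasal value was far above the highest rib value, and the mean excess was 4.12-fold (2.04, SE 0.10, limma adjusted p = 9.79e-05). Car9, the related hypoxia-induced enzyme, was dim at 261, 212 and 214 against 171, 131 and 156. It passed as well (0.59, SE 0.14, limma adjusted p = 0.0185), but not without rib replicate 2 or 3 (adjusted p up to 0.0633).

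The oxygen sensors did not move together. Egln3 (PHD3), itself a strong HIF target, had 643, 652 and 681 in nasal and 345, 274 and 287 in rib. Its nasal samples were close to each other and 2.19-fold above rib on average (1.13, SE 0.11, limma adjusted p = 0.000699). Egln1 (PHD2), the main oxygen sensor, ranged from 452 to 494 in nasal and from 427 to 474 in rib (0.04, 95% interval -0.17 to 0.26). Egln2 (PHD1) had 1022, 994 and 985 against 1242, 1117 and 1137, all lower in nasal. Egln2 did not pass (-0.22, SE 0.09, limma adjusted p = 0.107), though it did with trend and robust in eBayes (adjusted p = 0.0371). Vhl overlapped between the groups (-0.12, 95% interval -0.38 to 0.14).

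Pdk1 and Pdk3 encode kinases that inhibit pyruvate dehydrogenase and so hold pyruvate back from the tricarboxylic acid cycle. Pdk1 had 503, 591 and 506 in nasal and 359, 378 and 341 in rib (0.57, SE 0.10, limma adjusted p = 0.00719). Pdk3 had 1522, 1405 and 1215 in nasal and 941, 879 and 791 in rib (0.66, SE 0.12, limma adjusted p = 0.00696). Neither gene had any overlap between the groups. Bnip3 and Bnip3l encode receptors that direct mitochondria to autophagy. Bnip3 had 990, 1250 and 1225 in nasal and 635, 571 and 493 in rib, a 2.04-fold excess (1.03, SE 0.14, limma adjusted p = 0.00219). Bnip3l had 448, 491 and 371 against 270, 258 and 332, with its groups closer together (0.61, SE 0.15, limma adjusted p = 0.0211). Higd1a, a mitochondrial protein induced by hypoxia, had 483, 541 and 470 against 373, 396 and 367 (0.39, SE 0.09, limma adjusted p = 0.0209). Bnip3l lost its call without nasal replicate 2 and without rib replicate 1 or 2 (adjusted p up to 0.0785). Higd1a lost it in those same fits, without rib replicate 3 and after median centring (adjusted p up to 0.0982).

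Adm, which encodes the vasodilator peptide adrenomedullin, was the target higher in rib. It had 263, 298 and 310 in rib and 227, 164 and 153 in nasal, where replicate 1 stood nearest to the rib samples. The log2 difference was -0.70 (SE 0.16, limma adjusted p = 0.0186). The Adm call was lost without nasal replicate 2 or 3 and without rib replicate 2 or 3, with the adjusted p reaching 0.0683 over all alternatives. Another 5 targets of varied function overlapped between the groups. They were Ndrg1, a stress-induced gene (-0.01, 95% interval -0.23 to 0.21), Ddit4, an inhibitor of mTORC1 signalling (-0.16, -0.44 to 0.12), Mxi1, an antagonist of Myc (-0.08, -0.30 to 0.13), Kdm3a, a histone demethylase (0.10, -0.12 to 0.31), and Ankrd37 (0.28, -0.09 to 0.65). In Ankrd37, nasal replicate 1 stood at 245 and the other nasal samples at 161 and 184, against 155 to 162 in rib.

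Of the 21 calls, 13 held under each scaling, filter and variance setting tried and in each of the 6 fits without 1 sample. They were Hk1, Pfkl, Pfkfb4, Aldoc, Tpi1, Eno2, Ldhb, Slc16a3, Pdk1, Pdk3, Bnip3, Car12 and Egln3, of which only Eno2 was higher in rib. Leaving out rib replicate 2 cost the most calls, 8, and left 13 of the 37 genes called.

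Ratios of related genes within a sample do not depend on a common scaling factor of the array, but they can shift where scaling varies with intensity. The ratios of 14 pairs were computed, pairs that were picked with the values above known. They partly restate the differences of the single genes and are given as a description, with no test. The log2 ratio of Hk1 to Hk2 was higher in nasal by 0.95 (SE 0.06), that of Pfkfb4 to Pfkfb3 by 1.06 (SE 0.07), that of Eno1 to Eno2 by 0.98 (SE 0.06) and that of Aldoc to Aldoa by 0.72 (SE 0.11). Among the oxygen sensors, the ratio of Egln3 to Egln1 was higher by 1.09 (SE 0.09) and that of Egln3 to Egln2 by 1.35 (SE 0.07). The lactate carriers Slc16a3 and Slc16a1 differed by 0.70 (SE 0.21). The ratios of Pdk3 to Pdk1 (0.10, SE 0.13) and of Bnip3 to Bnip3l (0.42, SE 0.27) overlapped.

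**Figure D3:**
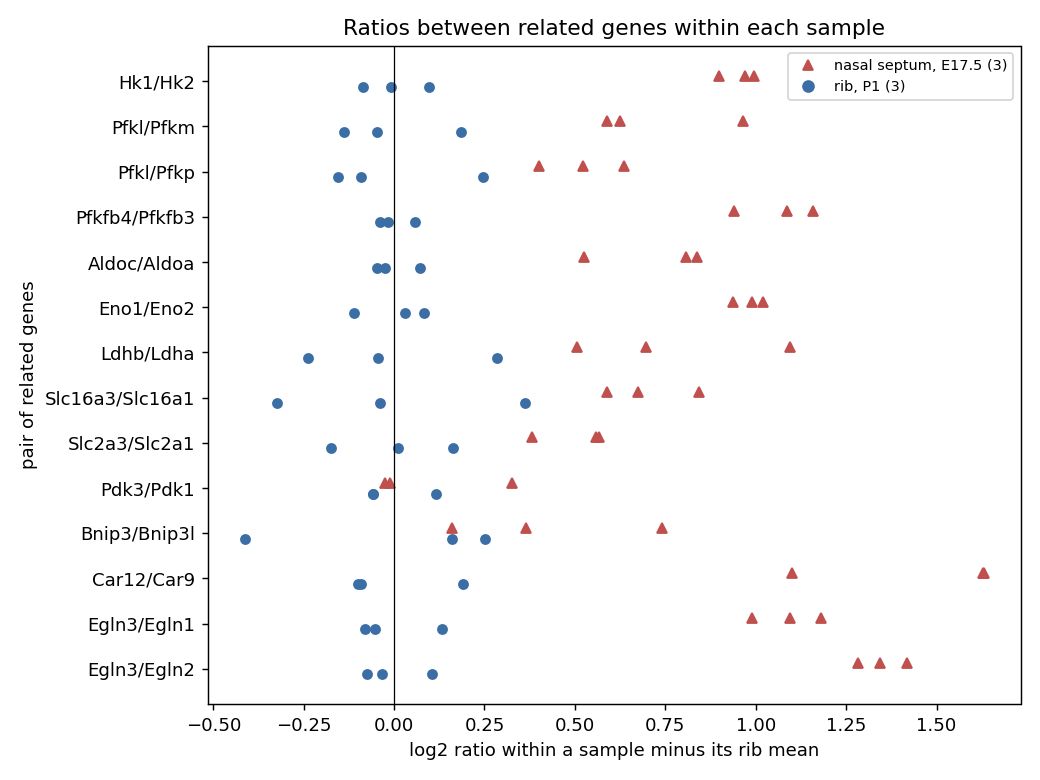
Log2 ratio of 2 related genes within each sample, relative to the mean ratio in rib, for 14 pairs. Triangles are nasal septum samples and circles rib samples (3 each). The groups overlap for Pdk3/Pdk1 and Bnip3/Bnip3l, and the ratio Hk1/Hk2 is higher in nasal by 0.95.

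The factors that control these genes differed in both directions. Of 15 genes of the HIF pathway, 5 (33.3%) passed towards nasal and 3 (20%) towards rib, where 18.0% and 26.3% of all brighter genes did. Hif1a, which encodes HIF-1alpha, had 6324, 7229 and 7028 in nasal and 5133, 5204 and 5000 in rib (0.42, SE 0.09, limma adjusted p = 0.014). Epas1, which encodes HIF-2alpha, had 781, 755 and 879 in nasal and 566, 609 and 638 in rib (0.41, SE 0.10, limma adjusted p = 0.022). The nasal samples were thus higher for both alpha subunits, whose activity depends mainly on protein stability. Their partner Arnt (HIF-1beta) had 1658, 1851 and 1704 in nasal against 2309, 2248 and 2056 in rib, the reverse order (-0.34, SE 0.09, limma adjusted p = 0.0344). Hif1a and Epas1 lost their calls after median centring and in 3 of the 6 fits without 1 sample, and Arnt in all 6, with the adjusted p reaching 0.0862, 0.0814 and 0.121. Hif1an, the asparagine hydroxylase that inhibits HIF, overlapped (0.02, SE 0.09). Siah1a (0.72, SE 0.11) and Arnt2 (0.54, SE 0.13) were also higher in nasal, as was Eloc (0.43, SE 0.13), while Cul2 (-0.41, SE 0.11) and Ep300 (-0.34, SE 0.09) were higher in rib. Arnt2, Eloc, Cul2 and Ep300 each lost the call in at least 2 fits without 1 sample.

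Further hypoxia targets outside the list were called more often towards rib than towards nasal. Of 36 measured, 5 (13.9%) were higher in nasal and 9 (25%) in rib, where 13.8% and 14.7% of all genes were. Among all brighter genes the shares were 18.0% and 26.3%, but 8 of the 36 were below the median intensity in both groups. The median log2 difference of the 36 was -0.03. Vegfa, the main growth factor for blood vessels, had 6500, 6190 and 5528 in rib and 4242, 3864 and 4042 in nasal (-0.58, SE 0.10, limma adjusted p = 0.00548). The lysyl oxidase relative Loxl2 (-1.19, SE 0.11), the haem oxygenase Hmox1 (-0.86, SE 0.11), the protein-folding oxidase Ero1a (-0.81, SE 0.10) and the transferrin receptor Tfrc (-0.71, SE 0.12) were also higher in rib. The secreted glycoprotein Stc1 (1.92, SE 0.17), the collagen crosslinking enzyme Lox (1.5, SE 0.24), Tmem45a (0.75, SE 0.13) and the collagen prolyl hydroxylase P4ha1 (0.65, SE 0.11) were higher in nasal. Stc1, which differed most among those higher in nasal, stood at 567, 548 and 535 in nasal and 112, 149 and 182 in rib.

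Beyond lactate, the genes of pyruvate entry and the tricarboxylic acid cycle, which oxidises pyruvate in mitochondria, were more often called as higher in rib. Of 29 measured, 12 (41.4%) were higher in rib and 2 (6.90%) in nasal, where 26.3% and 18.0% of all brighter genes were. Ogdh, a subunit of 2-oxoglutarate dehydrogenase, had 1939, 2178 and 2163 in rib and 1068, 1058 and 1144 in nasal (-0.94, SE 0.09, limma adjusted p = 0.000703). The malate dehydrogenase Mdh2 (-0.76, SE 0.09), the succinate dehydrogenase subunit Sdhc (-0.76, SE 0.09) and the fumarase Fh1 (-0.49, SE 0.10) followed, with no overlap between the groups. The genes higher in nasal were Pdk4 (0.69, SE 0.12), another inhibitory kinase of pyruvate dehydrogenase, and Pdp1 (0.41, SE 0.09), a phosphatase that opposes such kinases. Pdk4 had 489, 453 and 488 in nasal against 337, 260 and 294 in rib. Pdp1 lost its call after median centring and without rib replicate 3 (adjusted p up to 0.0795).

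Genes of glucose and glycogen metabolism outside the list were called in both directions. Of 31 measured, 5 (16.1%) were higher in nasal and 6 (19.4%) in rib, where 13.8% and 14.7% of all genes were. Among all brighter genes the shares were 18.0% and 26.3%, but 12 of the 31 were below the median intensity in both groups. The glycogen phosphorylases, which release glucose units from glycogen, were opposed. Pygl, the liver form, had 566, 628 and 567 in nasal and 299, 277 and 293 in rib (1.02, SE 0.09, limma adjusted p = 0.0005). Pygb, the brain form, had 470, 415 and 441 in nasal and 784, 819 and 893 in rib (-0.91, SE 0.10, limma adjusted p = 0.00091). The phosphoglucomutase Pgm1 (-1.23, SE 0.11), the glycogen synthase Gys1 (-0.68, SE 0.10) and the ADP-dependent glucokinase Adpgk (-0.59, SE 0.11) were higher in rib. Ppp1r3c, which targets a phosphatase to glycogen (0.95, SE 0.11), the glucose transporter Slc2a12 (0.94, SE 0.11) and Bpgm (0.56, SE 0.12) were higher in nasal. Bpgm lost its call without rib replicate 1 or 2 (adjusted p up to 0.0601). Pkm, pyruvate kinase, had 1966, 2080 and 1729 in nasal and 2162, 2333 and 2310 in rib, which did not pass (-0.24, SE 0.10, limma adjusted p = 0.125). It did so with trend and robust in eBayes (adjusted p = 0.0275). Gapdh was not analysed here.

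**Figure D4:**
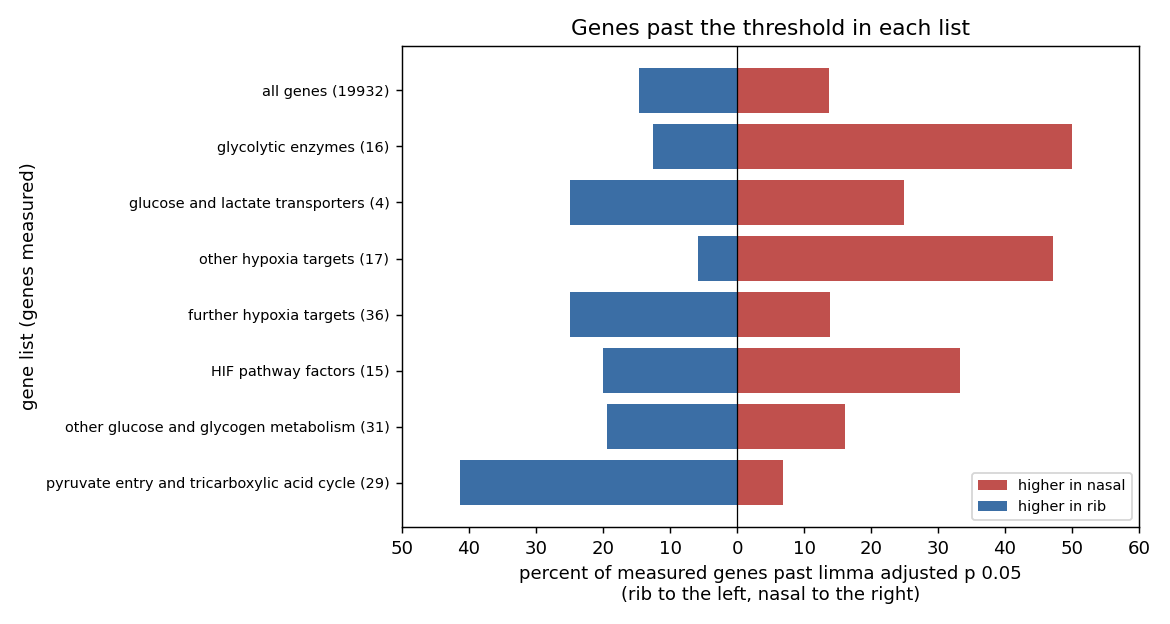
Percent of the measured genes of each list that passed a limma adjusted p of 0.05, with genes higher in rib drawn to the left and genes higher in nasal to the right. The number of genes measured stands beside each list. Glycolytic enzymes and other hypoxia targets reach 50% and 47.1% on the nasal side, and the list of pyruvate entry and the tricarboxylic acid cycle 41.4% on the rib side.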

How the data were processed

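Whole-transcript Affymetrix arrays were hybridised with labelled RNA, 300 ng per sample, per the labels' protocols. Deposited by the authors was 1 table of intensities on a linear scale for 28451 probe sets and 6 arrays, and RMA is named without a version, per the submitters' processing notes. Sources used here give neither a genome build nor summarisation settings. On every deposited array the mean intensity after trimming 2% at each end was 500, while the 25th percentiles ran from 87.3 to 140, so the distributions had not been made equal.

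Intensities were log2 transformed with no pseudocount. Probe sets were named through RefSeq accessions (GRCm38.p6), with 24935 matched to 1 symbol, and per gene the probe set with the highest mean was kept. Differences were tested on all 19932 genes with limma 3.58.1 in R 4.3.3, with Benjamini-Hochberg adjustment. The script was tested on simulated data. Array number limits the precision of every value. P-values measure the spread between these samples only.

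Genes and lists were chosen with earlier results of these data known. All genes of the list were named, with up to 4 called genes per direction from each list of further genes and 7 always named (Hif1a, Epas1, Arnt, Hif1an, Gapdh, Pkm and Vegfa). The enzymes and other targets whose promoters are shown were the 2 largest calls per direction with the core. Alternatives were other scalings, a filter on dim genes, an offset, another variance prior, all probe sets averaged, a replicate block and leaving out each sample.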

Additional observations from a re-analysis of the deposited data

How the results depend on the processing

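The count of glycolytic enzymes higher in nasal stayed between 6 and 9 under all alternatives, and no called gene of the list changed direction. Without 1 sample, the enzymes higher in rib ran from 1 to 2, the other hypoxia targets higher in nasal from 5 to 8 and higher in rib from 0 to 1, the transporters called from 1 to 2, the genes of the list called from 13 to 21 and the count of all genes past the threshold from 3466 to 5764. The median difference then ran from 0.27 to 0.34 for the enzymes and from 0.12 to 0.33 for the other targets. Dim genes carried the offset of all genes, whose median was -0.005 after quantile normalization and 0.004 after cyclic loess. The median of the other targets was 0.18 after quantile normalization, 0.21 after median centring, 0.20 after cyclic loess and 0.22 with an offset of 50. The enzymes' median was 0.23 after median centring and 0.25 with all probe sets averaged. With trend and robust, 2 other targets were higher in rib. Replicate numbers did not pair the samples (deviations of same-numbered samples correlated at -0.02, 0.22 and -0.28, and 1 of 6 samples correlated best with its own number). With a replicate block, limma called 15 genes of the list, 1 transporter and 0 other targets higher in rib (1 at an unadjusted p under 0.05). Over all genes it called 3903 with the block, against 5683 without it. Among uncalled genes, median centring turned the sign of Hk2 (-0.073), Egln1 (-0.032) and Hif1an (-0.051), and cyclic loess that of Vhl (0.00015). Fits without 1 sample gave a Hk2 log2 difference from -0.041 to 0.023, an Egln1 log2 difference from -0.00086 to 0.075, a Ndrg1 log2 difference from -0.048 to 0.042 and a Hif1an log2 difference from -0.013 to 0.076. The causes were not tested. Detection calls were not used, so how far Ldhb, Car9, Adm and Ankrd37 stood above background was not tested.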
